A study of Rattus norvegicus with 6 samples.

Results

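The genes described here are 10 enzymes that make bile acids from cholesterol in the liver or couple them to amino acids, chosen by gene name: Cyp7a1, Cyp8b1, Cyp27a1, Cyp7b1, Akr1d1, Hsd3b7, Amacr, Acox2, Slc27a5 and Baat. They are 10 of the 30957 genes in a table of rat liver RNA-seq, and all 10 were expressed well enough to be tested. In livers of rats that had received the faecal microbiota of DHEA-treated donors, Cyp7a1, which sets the pace of the classic pathway, was 3.08-fold higher (95% interval 1.49 to 6.39, n = 3 per group) than in recipients of control microbiota. Cyp8b1, which steers the pathway towards cholic acid, was 1.57-fold higher (1.02 to 2.42). Leaving out t-DHEA rat 1 lowered the difference in Cyp7a1 to 2.02-fold. The groups overlapped for Cyp8b1, whose call was lost under 9 of 14 alternative fits. Both met the criteria of the study (fold-change over 1.2 with p under 0.05, not adjusted for the number of genes), and neither passed adjustment for all genes. The other 8 enzymes did not meet these thresholds.

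Bile acids are detergents made from cholesterol in hepatocytes, and their synthesis is the main route by which the body disposes of cholesterol. The classic pathway starts with hydroxylation of the sterol ring by Cyp7a1, and the alternative pathway starts with hydroxylation of the side chain by Cyp27a1, followed by ring hydroxylation of the oxysterol by Cyp7b1. Gut bacteria deconjugate and dehydroxylate the bile acids that reach them, and bile acids returning from the gut act through nuclear receptor Fxr and the hormone Fgf15 to lower transcription of Cyp7a1 and Cyp8b1.

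The recipients were female Sprague Dawley rats bought at 3 weeks of age, and both groups were first given 3 courses of an antibiotic cocktail, each of 7 days, in their drinking water. The t-DHEA rats then received faecal microbiota by gavage daily for 14 days from donors injected daily with dehydroepiandrosterone (DHEA, an adrenal androgen precursor) at 6 mg per 100 g body weight, over 35 days that included the days of transfer, and the t-PBS rats received it from donors injected with phosphate buffered saline. RNA-seq covered the livers of 3 t-PBS and 3 t-DHEA rats, and values are given below in the order of rats 1, 2 and 3 of each group. The recipients themselves were not injected with DHEA, the donor pellets were pooled before transfer, rats were housed in pairs and the labels do not give the cage, so that p-values here measure the spread between recipients that may share a transplant and a cage.

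Total counts on genes ran from 12348511 to 14316886 per liver and albumin took 10.6% to 13.5% of them. Expression is given as CPM, counts scaled to a common library total. Where a gene had no count, its level could still have reached 3 counts (0.210 to 0.248 CPM), a limit that covers counting error only. Of 10 hepatocyte markers, all were expressed and only Tat, an amino acid catabolising enzyme, met the thresholds (log2 fold-change 0.68, edgeR adjusted p = 0.805). In bulk liver, fewer cells of a type and less RNA per cell cannot be told apart. Across the 12210 genes tested, 604 (4.95%) met the thresholds, 240 (1.97%) higher and 364 (2.98%) lower in t-DHEA, and the median log2 fold-change was 0.0013. No gene (0%) had an edgeR adjusted p below 0.05, although 634 had an unadjusted p below 0.05 and DESeq2 gave 20 genes an adjusted p below 0.05.

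Promoter sequences are shown for Cyp8b1, which was higher in t-DHEA, and for Cyp27a1 and Amacr, which were not called, because these are the enzymes whose promoters hold the core of the site bound by the nuclear receptor Nr5a2, a known activator of Cyp8b1. RefSeq promoters were found for 7 of the 10 enzymes (not for Cyp7a1, Cyp7b1 and Akr1d1), and the 250 bases before the start site are printed on the gene's strand in build GRCr8. Capitals mark the Nr5a2 core, CAAGGTC, and the hexamer that many nuclear receptors recognise, AGGTCA, on either strand.
Cyp8b1, chr8:130457593-130457842, minus strand: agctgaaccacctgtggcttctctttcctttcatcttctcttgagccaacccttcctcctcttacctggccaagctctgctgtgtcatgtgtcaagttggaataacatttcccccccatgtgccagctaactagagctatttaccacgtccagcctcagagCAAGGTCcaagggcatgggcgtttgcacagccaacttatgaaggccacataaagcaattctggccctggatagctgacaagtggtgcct
Cyp27a1, chr9:83713282-83713531, plus strand: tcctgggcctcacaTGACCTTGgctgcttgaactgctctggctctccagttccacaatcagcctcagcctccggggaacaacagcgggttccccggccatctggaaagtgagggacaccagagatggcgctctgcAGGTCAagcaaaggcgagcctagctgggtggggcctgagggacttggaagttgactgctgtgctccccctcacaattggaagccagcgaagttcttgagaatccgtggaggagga
Amacr, chr2:61673085-61673334, plus strand: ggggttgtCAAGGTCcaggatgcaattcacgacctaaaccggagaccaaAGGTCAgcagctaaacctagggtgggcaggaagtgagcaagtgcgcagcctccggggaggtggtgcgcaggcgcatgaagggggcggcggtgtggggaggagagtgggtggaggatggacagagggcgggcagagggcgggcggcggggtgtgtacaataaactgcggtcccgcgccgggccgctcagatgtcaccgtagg
The Nr5a2 core lay at -89 to -83 from the start site in Cyp8b1, at -242 to -236 in Amacr and, on the opposite strand, at -235 to -229 in Cyp27a1. Among all 33469 RefSeq promoters, 3.61% held this core within the same length. The hexamer was present at -201 to -196 in Amacr, at -115 to -110 in Cyp27a1, and at -236 to -231 in Cyp27a1 on the opposite strand, where it overlaps the core, and 14.1% of all promoters held it. Neither of these motifs was found in the Hsd3b7, Acox2, Slc27a5 and Baat promoters. Such matches describe the letters of these windows and are not evidence of binding. Nr5a2 itself was measured at 68.9, 69.2 and 72.8 CPM in t-PBS and at 68.8, 57.5 and 56.0 CPM in t-DHEA, a log2 fold-change of -0.21 that did not meet the thresholds (edgeR adjusted p = 0.973).

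Compared per length, in FPKM (counts divided by gene length and library total), the conjugation steps had the most RNA and the alternative ring hydroxylase the least. Averaged over the 6 livers, Baat was at 478 FPKM, Slc27a5 at 253, Acox2 at 183, Akr1d1 at 161, Amacr at 148, Cyp27a1 at 134.2, Cyp8b1 at 133.5, Cyp7a1 at 55.1, Hsd3b7 at 21.5 and Cyp7b1 at 1.07. Of the 9 neighbouring pairs in this order, only Baat and Slc27a5 (lowest 336 against highest 325 FPKM) and Hsd3b7 and Cyp7b1 (lowest 11.1 against highest 1.36 FPKM) had ranges that did not overlap. Cyp8b1 and Cyp27a1 differed by less than their spread, with Cyp27a1 above Cyp8b1 in 4 of 6 livers. Cyp8b1 lay above Cyp7a1 in 5 of 6 livers, the exception being t-DHEA rat 1. Summed over the 10 enzymes, the level was 1328, 1394 and 1682 FPKM in t-PBS and 1539, 1648 and 1820 FPKM in t-DHEA, with overlap between the groups.

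**Figure D1:**
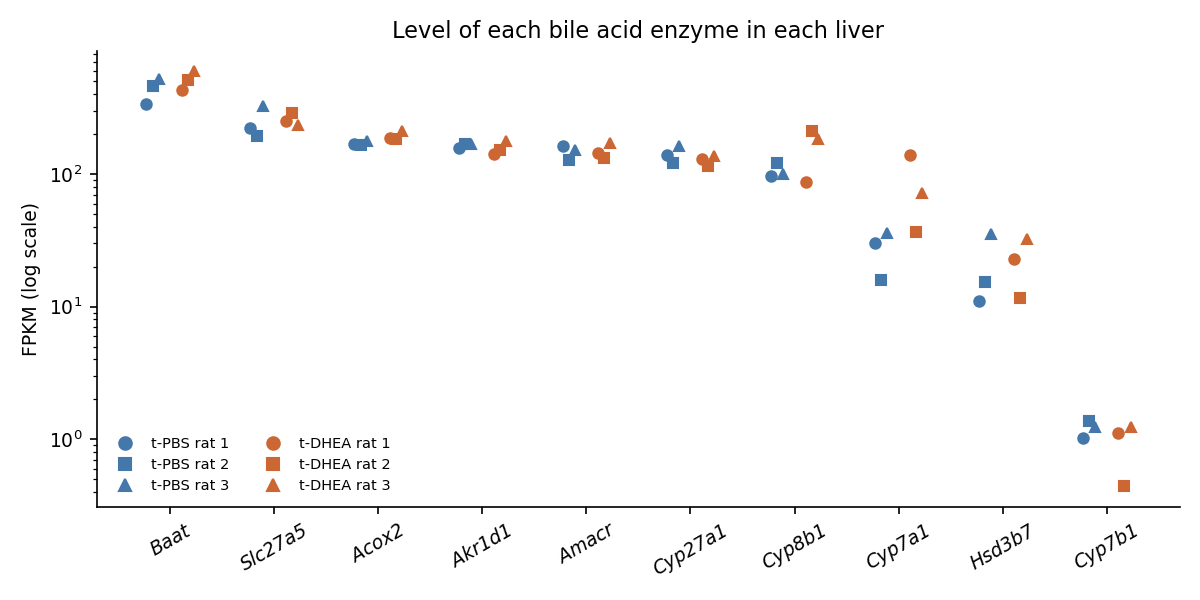
FPKM of each enzyme (log scale) in each of the 3 t-PBS (blue) and 3 t-DHEA (orange) livers, ordered by mean level, with 1 symbol per rat. Baat is at the top with 336 to 595 FPKM, Cyp7b1 at the bottom with 0.444 to 1.36 FPKM, and Cyp7a1 and Hsd3b7 spread widely between livers.

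In this comparison 2 of the 10 enzymes (20%) met the thresholds, both higher in t-DHEA, beside 4.95% of all genes tested in either direction and 1.97% higher. Of the 10, 7 had a positive and 3 a negative log2 fold-change, beside 50.4% positive among all genes. The median log2 fold-change of the enzymes was 0.13. The groups did not overlap for 2 enzymes, Cyp7a1 and Acox2, both higher in t-DHEA, beside 4.66% of all genes that were separated in this direction, and they overlapped for the other 8. The lowest adjusted p among the 10 was 0.805 in edgeR's quasi-likelihood test, for Cyp7a1. The enzymes are a few genes chosen with results of these livers known, and these counts are a description of them.

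**Figure D2:**
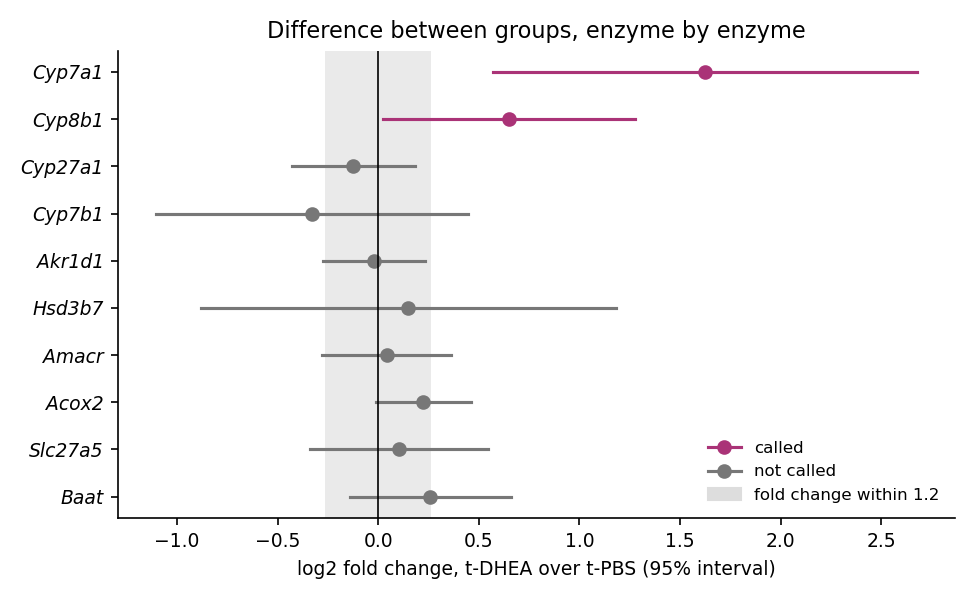
log2 fold-change of t-DHEA over t-PBS for each enzyme, with points for edgeR estimates and bars for their 95% intervals. The grey band marks fold-changes within 1.2, and the intervals of Cyp7a1 (0.57 to 2.68) and Cyp8b1 (0.022 to 1.27) are the ones that exclude 0.

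Cyp7a1 (ENSRNOG00000009488, Rnor_6.0 chr5:19358734-19368431, in the build of the gene table, as for all gene spans that follow), cholesterol 7alpha-hydroxylase, is the rate-limiting enzyme of the classic pathway. Its normalised expression was 108, 54.1 and 128 CPM in t-PBS and 503, 131 and 260 CPM in t-DHEA. Every t-DHEA liver was therefore above every t-PBS liver, but t-DHEA rat 2 exceeded t-PBS rat 3 by only 1.86% (0.565% when scaled by library totals), while t-DHEA rat 1 stood far above the rest. The group means were 96.6 ± 38.3 CPM in t-PBS and 298 ± 189 CPM in t-DHEA (SD, n = 3 each). In edgeR's quasi-likelihood test the log2 fold-change was 1.62 (SE 0.46, 95% interval 0.57 to 2.68), or 3.08-fold (1.49 to 6.39). The unadjusted edgeR p = 0.00695 (adjusted p = 0.805) stood beside an exact permutation p = 0.1 over livers, two-sided, the smallest that 3 against 3 livers allow. Without t-DHEA rat 1 the log2 fold-change was 1.01 (2.02-fold), and without t-DHEA rat 2 it was 1.98 (3.96-fold). Counts ran from 733 to 6092 per liver, so counting error was small beside the differences between rats. Within groups Cyp7a1 varied more than most genes, with a biological coefficient of variation of 38.5% beside a median of 13.3% over all genes tested, and the highest liver was 2.37 times the lowest in t-PBS and 3.85 times in t-DHEA.

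Cyp8b1 (ENSRNOG00000019481, Rnor_6.0 chr8:130548418-130550388), sterol 12alpha-hydroxylase, sets the share of cholic acid among the primary bile acids. It was measured at 191, 229 and 197 CPM in t-PBS and at 174, 422 and 369 CPM in t-DHEA. The groups overlapped because t-DHEA rat 1, the liver with the most Cyp7a1, had the least Cyp8b1 of all 6, while t-DHEA rats 2 and 3 were above every t-PBS liver. Group means were 205 ± 20.2 CPM in t-PBS and 322 ± 131 CPM in t-DHEA (SD, n = 3 each). The log2 fold-change was 0.65 (SE 0.28, 95% interval 0.022 to 1.27), or 1.57-fold (1.02 to 2.42). Its unadjusted edgeR p = 0.0439 (adjusted p = 0.957) stood beside an exact permutation p = 0.4. Cyp8b1 kept its call under 5 of 14 alternative fits, against 14 of 14 for Cyp7a1. DESeq2 and scaling by library totals left its log2 fold-change at 0.65 and 0.61, and limma on FPKM gave 0.51, but none of these fits called it. Leaving out any of the t-PBS rats, t-DHEA rat 2 or t-DHEA rat 3 ended the call, with log2 fold-changes of 0.40 to 0.73, and leaving out t-DHEA rat 1 gave 0.95 (1.93-fold, edgeR adjusted p = 0.195).

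**Figure D3:**
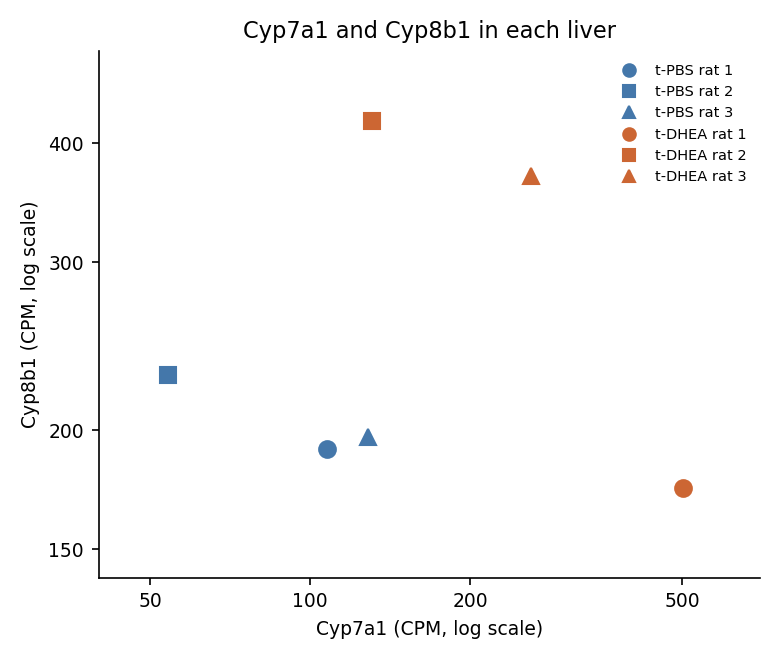
Cyp7a1 against Cyp8b1 in CPM (both axes log scale), 1 point per liver, t-PBS in blue and t-DHEA in orange. The t-DHEA liver with 503 CPM of Cyp7a1 has 174 CPM of Cyp8b1, and the one with 131 CPM of Cyp7a1 has 422 CPM of Cyp8b1.

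The enzymes of the alternative pathway did not meet the thresholds. Cyp27a1 (ENSRNOG00000017188, chr9:81968332-81998169), the mitochondrial sterol 27-hydroxylase that also oxidises the side chain in the classic pathway, was at 321, 266 and 370 CPM in t-PBS and at 299.6, 267 and 312 CPM in t-DHEA. All 3 t-DHEA values lay within the t-PBS range, and the log2 fold-change was -0.12 (SE 0.13, 95% interval -0.43 to 0.18, adjusted p = 0.989). Cyp7b1 (ENSRNOG00000009730, chr2:102701903-102871257), the oxysterol 7alpha-hydroxylase, was low, at 3.43, 4.35 and 4.08 CPM in t-PBS and 3.80, 1.496 and 4.17 CPM in t-DHEA. Of these, t-DHEA rat 2 stood below the others with 20 counts (95% Poisson interval 12.2 to 30.9, counting error only), where the others had 46 to 59 counts. Its log2 fold-change was -0.33 (SE 0.34, 95% interval -1.10 to 0.44, adjusted p = 0.989), and 0.016 without t-DHEA rat 2.

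As ratios of FPKM within a liver, Cyp7a1 was higher relative to both alternative pathway enzymes in every t-DHEA liver than in any t-PBS liver. The Cyp7a1 to Cyp7b1 ratio was 29.4, 11.7 and 29.5 in t-PBS and 124, 81.9 and 58.4 in t-DHEA. Its mean log2 was 4.44 ± 0.77 in t-PBS and 6.39 ± 0.55 in t-DHEA (SD, n = 3 each), a difference of 1.96, which ranged from 1.51 to 2.22 when single livers were left out. In t-DHEA rat 2 this ratio rested on the low Cyp7b1 count as well as on Cyp7a1. The Cyp7a1 to Cyp27a1 ratio was 0.216, 0.131 and 0.222 in t-PBS and 1.08, 0.315 and 0.534 in t-DHEA, a log2 difference of 1.62 that ranged from 1.15 to 2.04 without single livers. Only t-DHEA rat 1 had more Cyp7a1 than Cyp27a1 per length. The Cyp8b1 to Cyp7a1 ratio, by contrast, overlapped between the groups, at 3.19, 7.60 and 2.76 in t-PBS and 0.621, 5.82 and 2.56 in t-DHEA. Its log2 difference was -0.95, and -0.074 without t-DHEA rat 1. Because these ratios contain Cyp7a1, they are given as values with no test.

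**Figure D4:**
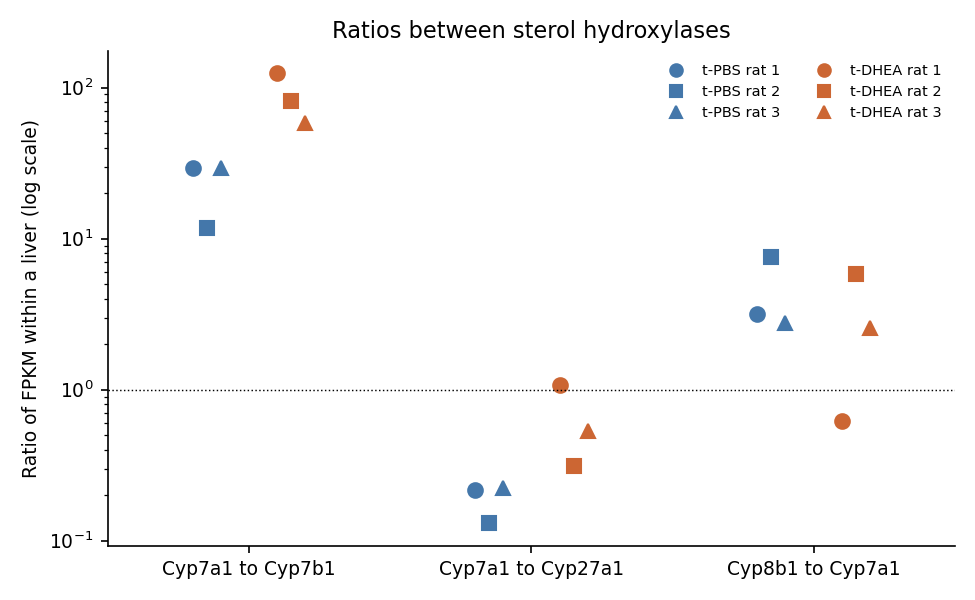
Ratios of FPKM between sterol hydroxylases within a liver (log scale, dotted line at equal levels), 1 point per liver, t-PBS in blue and t-DHEA in orange. For Cyp7a1 to Cyp7b1 and Cyp7a1 to Cyp27a1 the groups do not overlap, and for Cyp8b1 to Cyp7a1 they do.

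The 2 enzymes that rebuild the sterol ring after hydroxylation differed by less than the spread between rats. Hsd3b7 (ENSRNOG00000019080, chr1:199248470-199251740), the dehydrogenase and isomerase that acts on the products of both pathways, was at 19.98, 26.5 and 63.5 CPM in t-PBS and at 42.2, 21.1 and 58.7 CPM in t-DHEA. The highest liver was 3.18 times the lowest in t-PBS and 2.78 times in t-DHEA, and the biological coefficient of variation, 38.6%, was as large as that of Cyp7a1. Its log2 fold-change of 0.15 had an SE of 0.45 and a 95% interval of -0.88 to 1.18 (adjusted p = 0.99), so that wide changes in either direction remained within its error. Akr1d1 (ENSRNOG00000013004, chr4:65110746-65143941), the steroid 5beta-reductase that bends the ring system, was by contrast even across the livers. It was at 542, 563 and 580 CPM in t-PBS and 504, 534 and 624 CPM in t-DHEA, with a log2 fold-change of -0.021 (SE 0.11, 95% interval -0.27 to 0.23, adjusted p = 0.993).

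The peroxisomal enzymes shorten the side chain. Acox2 (ENSRNOG00000007378, chr15:18451144-18481470), the branched-chain acyl-CoA oxidase, was at 424, 395 and 446 CPM in t-PBS and at 479, 463 and 535 CPM in t-DHEA. Its groups did not overlap, with the lowest t-DHEA liver 3.83% above the highest t-PBS liver, but the difference was small. The means were 422 ± 25.7 and 492 ± 37.9 CPM (SD, n = 3 each). The log2 fold-change of 0.22 (SE 0.10, 95% interval -0.013 to 0.46), or 1.17-fold, was below the 1.2 required, with an unadjusted edgeR p = 0.0614, an adjusted p = 0.969 and an exact permutation p = 0.1. Without t-DHEA rat 2 it met the thresholds, at a log2 fold-change of 0.27. Amacr (ENSRNOG00000018662, chr2:60949256-60961326), the racemase that gives Acox2 its substrate, was at 390, 293 and 364 CPM in t-PBS and 349, 317 and 412 CPM in t-DHEA, overlapping throughout, with a log2 fold-change of 0.043 (SE 0.14, 95% interval -0.28 to 0.36, adjusted p = 0.99).

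In conjugation, bile acids are activated to CoA esters and joined to taurine or glycine. Slc27a5 (ENSRNOG00000019626, chr1:65576535-65587186), the bile acyl-CoA synthetase, was at 521, 429.6 and 753 CPM in t-PBS and at 594, 682 and 553 CPM in t-DHEA. The t-DHEA values lay within the wider t-PBS range, and the log2 fold-change was 0.10 (SE 0.19, 95% interval -0.34 to 0.55, adjusted p = 0.99). Here t-PBS rat 3 decided the call, since without it the enzyme met the thresholds with a log2 fold-change of 0.36. Baat (ENSRNOG00000007395, chr5:64768401-64777368), the amino acid N-acyltransferase, was at 575, 761 and 889 CPM in t-PBS and 754, 886 and 1024 CPM in t-DHEA. Its groups overlapped, with a log2 fold-change of 0.26 (SE 0.18, 95% interval -0.14 to 0.66, adjusted p = 0.986).

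The rest of the synthesis pathway was described from a list of 15 further enzymes and carriers, among them Scp2, Hsd17b4, Abcd3 and Slc27a2. Of the 11 that could be tested none met the thresholds in edgeR or DESeq2 or had an unadjusted edgeR p below 0.05, beside 4.95% of all genes, 6 had a positive log2 fold-change, and the median was 0.025. Akr1c9 was not matched, and Ch25h, Cyp46a1 and Star were too low to test. Of 20 regulators of synthesis, 19 were tested and again none met the thresholds in edgeR or DESeq2 or had an unadjusted edgeR p below 0.05, with 7 positive and a median log2 fold-change of -0.039. Leaving out t-PBS rat 3 gave 1 and leaving out t-DHEA rat 1 gave 2 regulators called. Gpbar1 was listed at 0 in all livers. Among regulators chosen for mention after their values were seen, Nr1h4, which encodes the bile acid receptor Fxr, was at 139, 108 and 109 CPM in t-PBS and 106, 98.0 and 99.0 CPM in t-DHEA. Its log2 fold-change of -0.23 did not meet the thresholds (adjusted p = 0.974). Nr0b2, the Fxr target Shp that represses Cyp7a1, was at 9.74, 5.31 and 27.7 CPM in t-PBS and 20.4, 9.35 and 15.0 CPM in t-DHEA, with wide overlap (log2 fold-change 0.065, adjusted p = 0.996). The receptor for Fgf15, Fgfr4, and its partner Klb had log2 fold-changes of -0.16 and 0.11 and did not meet the thresholds either (adjusted p = 0.986 and adjusted p = 0.99).

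Of 14 bile acid and sterol transporters, 11 were tested and 1 met the thresholds, beside 4.95% of all genes. This was Slco1a4, an organic anion uptake carrier, which was lower in t-DHEA, at 227, 207 and 354 CPM in t-PBS and 209, 165 and 160.1 CPM in t-DHEA (log2 fold-change -0.56, adjusted p = 0.93). Its groups overlapped, and reads shared with related Slco1a genes could make its counts uncertain, which was not tested. Leaving out t-DHEA rat 2 or 3 left no transporter called, and leaving out t-PBS rat 1 gave 4. The main uptake and export carriers were not called, Slc10a1 with a log2 fold-change of -0.20 (adjusted p = 0.986) and Abcb11 with -0.075 (adjusted p = 0.99). Cholesterol supply was represented by 12 genes, of which 2 met the thresholds, both higher (1.97% of all genes), and 11 had a positive log2 fold-change (50.4% of all genes), with a median of 0.23. The cholesterol supply genes called numbered 1 on leaving out t-PBS rat 1 and 4 on leaving out t-DHEA rat 1.

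Cyp7a1 is a rhythmic gene that the clock output factor Dbp is known to activate, so clock genes were read beside it. The 3 genes whose pattern over the 6 livers was nearest to that of Cyp7a1, by the root mean square difference of centred log2 CPM, were Per3 (0.46), Dbp (0.46) and Usp2 (0.49), where Cyp7a1 itself had a root mean square of 1.01. Dbp was at 32.0, 29.1 and 62.4 CPM in t-PBS and 112, 41.7 and 123 CPM in t-DHEA (log2 fold-change 1.16, adjusted p = 0.909), and its groups overlapped through t-DHEA rat 2. As for Cyp7a1, t-DHEA rat 2 was the lowest liver of its group, but the highest was t-DHEA rat 3 for Dbp and rat 1 for Cyp7a1. Nr1d1, a repressor of the clock, was at 82.3, 89.2 and 142.3 CPM in t-PBS and 129, 117 and 143.5 CPM in t-DHEA, and did not meet the thresholds (0.32, adjusted p = 0.986). Of 11 genes listed in phase with Dbp, Bhlhe41 was too low to test. It was lower in t-DHEA without overlap, with 8, 7 and 8 counts in t-PBS and 4, 1 and 5 in t-DHEA. Of the 10 genes tested, 5 met the thresholds, all higher (1.97% of all genes). All 10 had a positive log2 fold-change (50.4% of all genes), with a median of 0.76. Without single livers 3 to 8 of them were called, the lowest number without t-PBS rat 1, t-DHEA rat 1 or t-DHEA rat 3 and the highest without t-DHEA rat 2. Their mean log2 CPM (a small constant added first) was 3.70, 3.67 and 4.02 in t-PBS and 4.76, 3.70 and 4.66 in t-DHEA. The lowest p values among them were those of Per3 (log2 fold-change 1.09, adjusted p = 0.796), Per2 (0.84, adjusted p = 0.8005) and Tef (0.67, adjusted p = 0.815). Of 6 genes in the opposite phase 1 met the thresholds (2.98% of all genes were called lower), Arntl, the core activator Bmal1, which was at 36.7, 29.1 and 26.0 CPM in t-PBS and 14.1, 22.4 and 13.7 CPM in t-DHEA (-0.87, adjusted p = 0.796), and leaving out single livers gave 1 to 3 called (3 without t-PBS rat 3 and 2 without rat 2 of either group). The hour at which each liver was taken is not in the labels, and the part of clock phase in the Cyp7a1 difference was not tested.

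**Figure D5:**
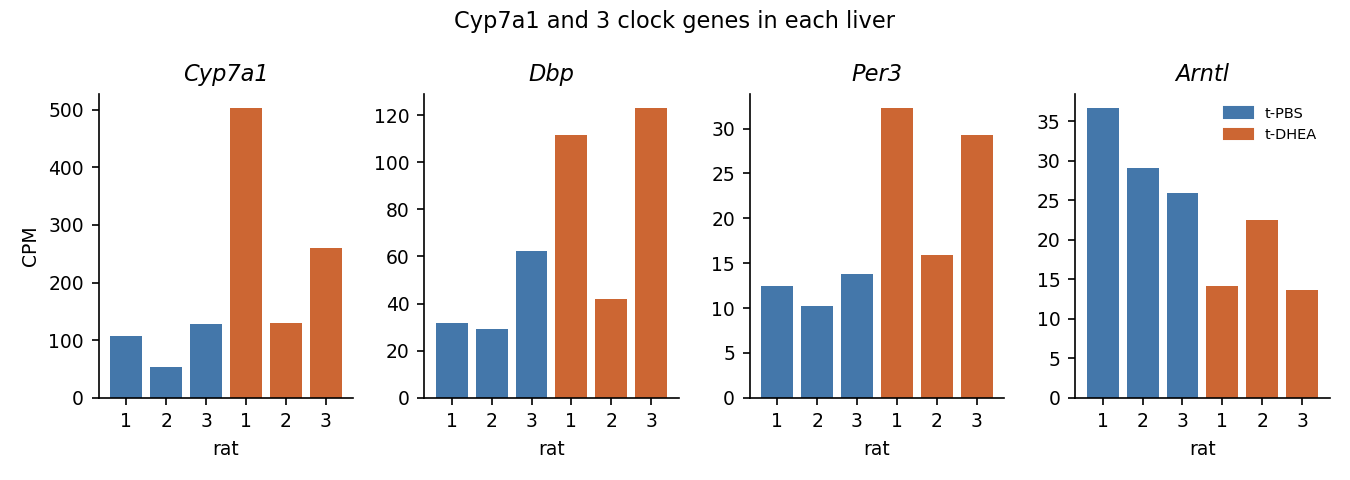
CPM of Cyp7a1, Dbp, Per3 and Arntl in each liver (bars from 0, a separate axis per gene), t-PBS in blue and t-DHEA in orange, with rats numbered below. Cyp7a1 and Per3 are above every t-PBS liver in each t-DHEA rat (Cyp7a1 in rat 2 by only 1.86%). Dbp is above every t-PBS liver in t-DHEA rats 1 and 3 but not in rat 2. Arntl is lower in every t-DHEA liver than in any t-PBS liver.

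Cyp8b1 had other neighbours. The genes nearest to it over the 6 livers were Fads3, a fatty acid desaturase family member (root mean square difference 0.13), Orm1, an acute phase plasma protein (0.16), and Gria3, a glutamate receptor subunit (0.18), where Cyp8b1 itself had 0.49. Orm1 was at 317, 359.9 and 309.5 CPM in t-PBS and 227, 526 and 495 CPM in t-DHEA, again with t-DHEA rat 1 lowest of all. No clock gene was among the nearest 3 of Cyp8b1. For Cyp7a1 as for Cyp8b1, the likeness is a description over 6 livers that share their groups, with no test.

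Markers of other cell types also differed between the groups, and their counts stand beside 2.98% of all genes called lower and 1.97% called higher. Summed CPM was lower in t-DHEA without overlap for mesothelial markers (24.6 to 27.1 in t-PBS against 1.72 to 12.5, 4 of 5 tested met the thresholds, with lowest p for Upk3b, Muc16 and Msln), for cholangiocyte markers (42.0 to 48.4 against 30.7 to 38.2, 2 of 6, Krt19 and Krt7) and for stellate cell markers (646 to 806 against 537 to 623, 2 of 8, Col1a1 and Col3a1). Col3a1 was the largest part of the stellate sum, at 379, 499 and 430 CPM in t-PBS and 329, 286 and 376 CPM in t-DHEA. Apart from Col1a1 and Col3a1, the stellate markers overlapped between the groups and were not called, and Lrat had a positive log2 fold-change (0.042). Lrrn4, Wt1 and Krt7 were at 0 in t-DHEA rat 2. Summed CPM was higher without overlap for red blood cell markers (185 to 284 against 304 to 590, 3 of 5, Hba1, Hbb-b1 and Hbb). Hba1 and Hbb were the largest parts of this sum, and Alas2 and Slc4a1 were not called (log2 fold-changes of 0.38 and -0.11). The groups overlapped for hepatocyte markers (174913 to 189767 against 184552 to 203577), Kupffer cell markers (497 to 627 against 549 to 758, 0 of 8) and endothelial markers (311 to 461 against 425 to 442, 1 of 7, Kdr). Such sums mainly follow the most abundant genes of a list, for hepatocytes Alb (107299 to 137531 CPM over the 6 livers). By zone of the lobule, 0 of 7 pericentral and 1 of 8 periportal hepatocyte genes met the thresholds, the latter being Sds, a serine catabolising enzyme (log2 fold-change 1.67, adjusted p = 0.957). Sds was at 17.9, 15.6 and 17.1 CPM in t-PBS and 40.2, 10.5 and 110 CPM in t-DHEA. Its groups overlapped, with t-DHEA rat 2 the lowest of all 6 livers. The part of these marker and zone differences in the values of the bile acid enzymes was not tested.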

How the data were processed

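RNA-seq of 6 rat livers was analysed from the gene table the authors deposited. The authors filtered the reads with Seqtk, mapped them to Rnor_6.0 with HISAT2 2.0.4 and counted fragments per gene with StringTie 1.3.0 (versions from the submitters' processing notes). The deposited counts carry no normalization. The deposited FPKM values equal count over gene length over library total (relative spread 9.728e-06 over 7302 genes) and were used to compare levels between genes, for ratios and in the limma alternatives. Strandedness and annotation release are not given in the sources used here. No other gene in the table overlaps the span of any of the 10 enzymes.

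Counts were tested with the quasi-likelihood test of edgeR 4.0.16 (R 4.3.3) after TMM normalisation and its default filter, with no block. CPM are TMM-normalised. Genes were called at the criteria of the study (fold-change over 1.2 with an unadjusted p under 0.05), and adjusted p-values are Benjamini-Hochberg over all 12210 genes tested. The study ran edgeR on FPKM, to which a count model was not fitted here. Standard errors were derived from the test statistic. The test was checked on simulated counts. The alternatives were DESeq2 1.42.0, other scalings and filters, limma 3.58.1 on log2(FPKM + 0.1) and log2(FPKM + 1), the replicate number as a block, higher fold thresholds and each liver left out in turn. The lowest chi-square per degree of freedom between 2 libraries was 16.23, so none was a duplicate.

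The 10 enzymes and all gene lists were chosen with earlier results of these data known, and the lists were written from general knowledge. The text names all 10 enzymes, the genes called in each other list (up to the 3 with the lowest p), the 3 genes nearest to Cyp7a1 and to Cyp8b1 (mean of at least 1 CPM), and Dbp and Nr1d1. Regulators, transporters and other genes named beyond this were chosen after their values were seen. Promoters are from RefSeq (GRCr8). Serum, histology, 16S and metabolome data were not analysed here. Single genes of the cholesterol supply list are not reported here.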

Additional observations from a re-analysis of the deposited data

How the results depend on the processing

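With the fold-change threshold at 1.5 and 2, the genes called fell from 604 to 275 and 100, and without single livers they numbered 514 to 747. The enzymes called numbered 1 (Cyp7a1) with DESeq2, with library totals, with limma on log2(FPKM + 0.1) or log2(FPKM + 1) and above 2-fold, and 1 to 2 without single livers. Cyp7a1 kept its call under all 14 alternatives of the fit (log2 fold-change 1.01 to 1.98). Cyp8b1 lost its call with DESeq2, library totals, limma at both pseudocounts and without any liver but t-DHEA rat 1. With the replicate block, 539 genes and 3 enzymes were called (Baat in addition), but the numbers are not shown to pair the rats: deviations of same-numbered livers correlated at -0.057, -0.059 and -0.055, and no liver correlated best with its own number. Acox2 was called without t-DHEA rat 2. Log2 fold-changes that changed sign when single livers were left out ranged from -0.58 to 0.016 for Cyp7b1, -0.11 to 0.043 for Akr1d1, -0.21 to 0.81 for Hsd3b7, -0.066 to 0.13 for Amacr and -0.060 to 0.36 for Slc27a5. Genes called without single livers numbered 0 to 1 among the further enzymes and carriers (1 with no filter and with the replicate block), 0 to 2 among regulators (1 when t-PBS rat 3 and 2 when t-DHEA rat 1 was left out), 0 to 4 among transporters (leaving out t-DHEA rats 2 or 3 gave 0 and leaving out t-PBS rat 1 gave 4), 1 to 4 for cholesterol supply (1 on leaving out t-PBS rat 1 and 4 on leaving out t-DHEA rat 1), 3 to 8 for genes in phase with Dbp (8 when t-DHEA rat 2 was left out, and 3 when t-PBS rat 1 or either of t-DHEA rats 1 and 3 was left out) and 1 to 3 for genes in phase with Arntl (2 with DESeq2, with no filter and with the replicate block, 3 when t-PBS rat 3 was left out). The causes were not tested. Counts were lowest for Cyp7b1, at 20 to 59 per liver.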
